A study of Mus musculus with 9 samples.

Results

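*Il4*, *Il13*, *Gata3*, *Il4ra* and *Stat6* are genes of the type 2 cytokine pathway, and they were followed here in thymic invariant natural killer T (iNKT) cells. The 5 genes were chosen by name, as the type 2 cytokines of NKT2 cells and their regulators, and each matched 1 of the 21883 genes in the expression table.

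Interleukin 4 and interleukin 13 are secreted by T helper 2 cells, group 2 innate lymphoid cells, mast cells and the NKT2 subset of iNKT cells. Their genes lie side by side and respond to the transcription factor GATA3, while NFAT and AP-1 factors drive them after antigen receptor signalling. Both cytokines act through receptors that contain the IL-4 receptor alpha chain, which passes the signal through JAK kinases to STAT6, and STAT6 in turn can raise *Gata3* and *Il4ra* in T cells. iNKT cells carry an invariant antigen receptor for glycolipids on CD1d, and NKT2 cells are known for holding *Il4* messenger RNA at rest.

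RNA was sequenced in 9 libraries of iNKT cells sorted from the thymus of C57BL/6 mice, 3 from each of the groups WT stage 2, WT stage 3 and stage 2 with *Med23* deficiency. Stage 2 cells were gated as low for CD24 and NK1.1 and high for CD44, and stage 3 cells as high for CD44 and NK1.1. WT mice were 6 weeks old, and the labels give no age for the *Med23*-deficient mice, in which a Cre transgene under the CD4 promoter deletes *Med23*, a Mediator subunit, by the double-positive thymocyte stage and so also in conventional T cells. The methods describe the sequencing data as representative of 3 independent experiments, but neither they nor the labels say which mice a library came from, so p-values measure the spread between these libraries, which may be technical.

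*Med23* itself had 5.51, 5.15 and 6.74 FPKM (fragments scaled for transcript length and for the mapped fragments of the library) in WT stage 2 against 4.80, 3.60 and 3.92 FPKM under *Med23* deficiency, with no overlap. This value counts every exon, deleted or not. Between 15584 and 17333 genes lay above 0 in a library, and no read depth is known. The iNKT markers (*Cd3e*, *Cd3g*, *Cd3d*, *Zbtb16*, *Cd44* and 3 others) summed to between 652 and 818 FPKM in every library. Of the mast cell and basophil markers, 1 of 10 was analysed and stayed at or below 0.58 FPKM, so cells of those types, which also make IL-4, were looked at through *Hdc* alone. A list of 10 cell division genes summed to 47.7 to 63.3 FPKM in WT stage 2, to 4.14 to 12.6 FPKM in WT stage 3 and to 5.84 to 6.34 FPKM in *Med23*-deficient stage 2. Its part in the differences between groups was not tested. Markers of double-positive thymocytes, 8 genes, summed to 1.79 to 5.05 FPKM.

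*Il4* and *Il13* share a locus on the minus strand of chromosome 11 (mm10), with 12654 bases between the gene models. To show the DNA next to the start of each, the 250 bases before the RefSeq start site are given, read 5′ to 3′ on the strand of the gene (GRCm38.p6), at chr11:53618666-53618915 for *Il4* and chr11:53634703-53634952 for *Il13*. Capitals mark GGAAA, the core letters of NFAT binding sites, or TTTCC, its reverse complement.
Il4: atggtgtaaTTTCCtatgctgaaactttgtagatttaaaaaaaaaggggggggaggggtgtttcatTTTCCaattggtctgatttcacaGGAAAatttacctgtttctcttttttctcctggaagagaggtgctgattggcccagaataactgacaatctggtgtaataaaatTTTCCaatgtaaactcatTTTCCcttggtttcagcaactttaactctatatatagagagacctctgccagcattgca
Il13: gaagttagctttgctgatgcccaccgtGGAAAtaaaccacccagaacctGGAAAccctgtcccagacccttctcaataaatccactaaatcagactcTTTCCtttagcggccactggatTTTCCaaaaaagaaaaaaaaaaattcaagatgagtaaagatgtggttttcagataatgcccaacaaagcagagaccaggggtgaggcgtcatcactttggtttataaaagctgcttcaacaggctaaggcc

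The *Il4* window held 5 such matches, the nearest starting 59 bases before the start site, and the *Il13* window held 4, the nearest 131 bases before it. At least 1 match stood in 55.6% of 32851 mouse promoter windows of the same length, searched on both strands like all motifs here, and in all 5 windows of the genes described. TTC followed after 4 bases by GAA, a spacing to which STAT6 binds, occurred once before *Il4*, 167 bases from the start and overlapping the GGAAA match at 161, in none of the other 4 windows and in 5.85% of all windows. TGCTGA or TCAGCA, part of a MAF recognition element, occurred 3 times before *Il4*, once each before *Il13* and *Gata3*, and in 16.1% of all windows. GATA or TATC occurred once before *Il13*, 80 bases from the start, once before *Stat6* and in 53.6% of all windows. TGANTCA, an AP-1 site, was in none of the 5 windows and in 6.75% of all. The RefSeq start site used for *Gata3*, at 9878600 on the minus strand of chromosome 2, lies inside the deposited gene model, which runs to 9890034. Its window is therefore not upstream of the model whose FPKM is given. All these matches are letters in a short window and show no binding.

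**Figure D1:**
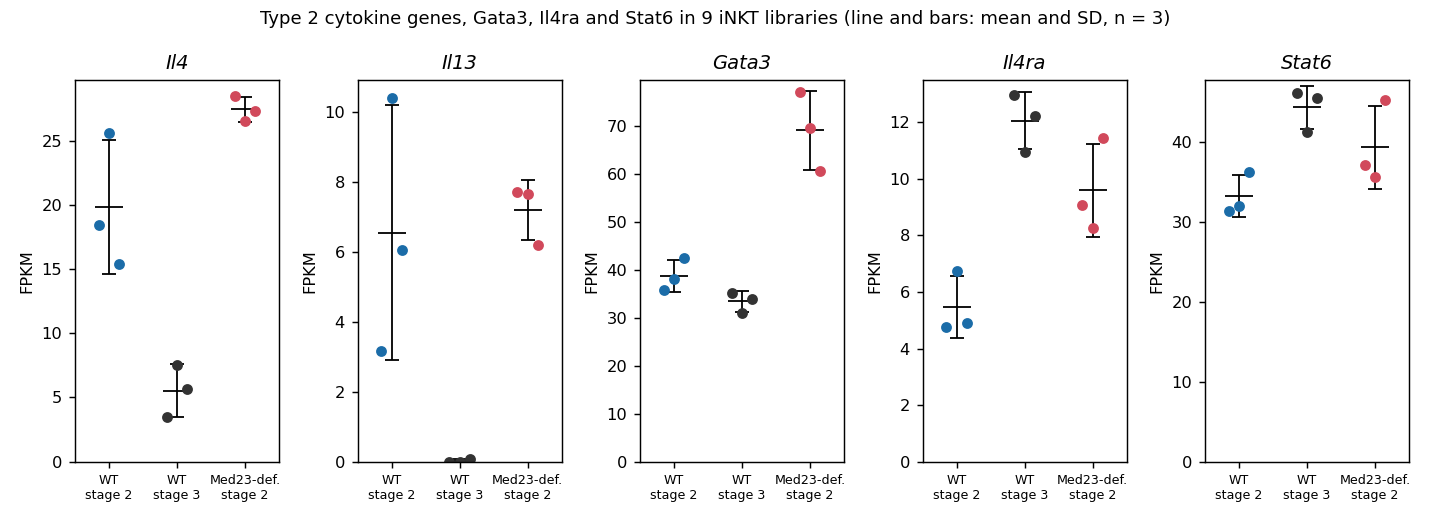
FPKM of *Il4*, *Il13*, *Gata3*, *Il4ra* and *Stat6* (1 panel each, linear y axis from 0) in the 9 libraries, with points for single libraries and a line with bars for the mean and SD of each group (n = 3). *Il4* and *Il13* are lowest in WT stage 3, *Gata3* is highest in *Med23*-deficient stage 2, and *Il4ra* and *Stat6* are lowest in WT stage 2.

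*Il4* (ENSMUSG00000000869, chromosome 11, 53602982 to 53618669, mm10) encodes interleukin 4. WT stage 2 libraries held 18.44, 25.56 and 15.40 FPKM, WT stage 3 libraries 3.46, 7.51 and 5.66 FPKM, and *Med23*-deficient stage 2 libraries 28.48, 26.52 and 27.31 FPKM. The 3 groups did not overlap, and the *Med23*-deficient libraries lay closest together. The group means were 19.8 ± 5.21, 5.54 ± 2.03 and 27.4 ± 0.986 FPKM (SD, n = 3 each), so that *Il4* stood 3.57-fold higher in WT stage 2 than in WT stage 3. On FPKM, which is scaled for transcript length, the WT stage 2 mean was above 89.7% of the genes detected in that group, the WT stage 3 mean above 68.7% and the *Med23*-deficient mean above 93.4%.

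*Il13* (ENSMUSG00000020383, chromosome 11, 53631324 to 53634702), which encodes interleukin 13, had 3.16, 10.39 and 6.06 FPKM in WT stage 2. In WT stage 3 it was listed at 0, 0 and 0.09 FPKM, the lowest level of the 5 genes in any group. In *Med23*-deficient stage 2 it was listed at 7.70, 7.65 and 6.19 FPKM, all within the range of WT stage 2. The WT stage 2 libraries spread widely, with a mean of 6.54 ± 3.64 FPKM (SD, n = 3) against 7.18 ± 0.858 FPKM (SD, n = 3) in *Med23*-deficient cells. The level of *Il4* was 5.84, 2.46 and 2.54 times that of *Il13* in the 3 WT stage 2 libraries and 3.70, 3.47 and 4.41 times in the *Med23*-deficient ones, ranges that overlap.

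*Il4ra* (ENSMUSG00000030748, chromosome 7, 125552120 to 125579474) encodes the receptor chain shared by both cytokines, and its order across groups differed from that of the ligands. Its level was 4.77, 6.73 and 4.89 FPKM in WT stage 2, against 12.97, 10.96 and 12.21 FPKM in WT stage 3 and 9.06, 8.26 and 11.44 FPKM in *Med23*-deficient stage 2. Every WT stage 3 and every *Med23*-deficient library lay above all WT stage 2 libraries, while WT stage 3 and *Med23*-deficient libraries overlapped. The means were 5.46 ± 1.10, 12.0 ± 1.01 and 9.59 ± 1.65 FPKM (SD, n = 3 each).

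*Stat6* (ENSMUSG00000002147, chromosome 10, 127642986 to 127660957), the transcription factor activated by the receptor, had 31.35, 32.00 and 36.14 FPKM in WT stage 2, against 46.10, 41.23 and 45.45 FPKM in WT stage 3, and 37.02, 35.61 and 45.25 FPKM in *Med23*-deficient stage 2. The *Med23*-deficient libraries overlapped both WT groups, which did not overlap each other. Means were 33.2 ± 2.60, 44.3 ± 2.64 and 39.3 ± 5.21 FPKM (SD, n = 3 each). The end of *Stat6* shares 40 bases with its neighbour *Nab2* on the other strand. Reads were from a stranded kit, but the strand setting of the quantification is not given in the sources used here.

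*Gata3* (ENSMUSG00000015619, chromosome 2, 9857078 to 9890034) encodes the factor that opens and activates the type 2 cytokine locus and is also needed for early T cell development. WT stage 2 libraries had 35.81, 38.10 and 42.47 FPKM, WT stage 3 libraries 35.33, 31.15 and 33.93 FPKM, and *Med23*-deficient stage 2 libraries 77.18, 69.69 and 60.69 FPKM. The *Med23*-deficient libraries stood well above all 6 WT libraries, and the WT stages lay next to each other without overlap. Means were 38.8 ± 3.38, 33.5 ± 2.13 and 69.2 ± 8.26 FPKM (SD, n = 3 each), and the *Med23*-deficient mean was above 97.8% of detected genes. An overlapping antisense model, *Gm13256*, never passed 1.27 FPKM.

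The first comparison asked how the genes differ between the last 2 maturation stages in WT cells. *Il13* fell from stage 2 to stage 3, by 2.75 on the log2(FPKM + 1) scale (SE 0.40, limma adjusted p = 0.0404 by Benjamini-Hochberg over 20689 genes). *Il4ra* rose by 1.02 on the same scale (SE 0.16, limma adjusted p = 0.0473). *Il4* showed a log2 fold change of -1.69 ± 0.29 (SE, 95% confidence interval -2.40 to -0.97), which met a fold of 2 with an unadjusted p of 0.00116 but missed the adjusted threshold (limma adjusted p = 0.058). *Stat6* showed a log2 fold change of 0.41 ± 0.09 (SE, limma adjusted p = 0.116) and *Gata3* one of -0.21 ± 0.10 (SE, limma adjusted p = 0.449, 95% confidence interval -0.44 to 0.03).

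In that comparison 2 of the 5 genes passed the adjusted p of 0.05, against 1.67% of all genes tested, and 3 passed the fold and p thresholds of the study (a fold of 2 or more with an unadjusted p up to 0.05), against 3.6%. The latter count was 2 in a per-gene linear model after Ballgown, the program named in the methods of the study, where *Il4* had a log2 fold change of -1.59 and an unadjusted p of 0.0768. It was also 2 on the TPM scale (*Il4ra* at 0.93) and without WT stage 2 replicate 1, WT stage 2 replicate 3 or WT stage 3 replicate 1, where *Il4ra* was at 0.95, 0.96 and 0.97. All 5 had no overlap between the stages, where 17.8% of all genes had none, with *Il4ra* and *Stat6* higher and *Il4*, *Il13* and *Gata3* lower in stage 3. These bulk values cannot tell fewer cells of a type from less RNA per cell. Both calls by adjusted p rest on small margins. That of *Il13* held without WT stage 2 replicate 1 (limma adjusted p = 0.0487) and was lost without any other single library (limma adjusted p = 0.0545 to 0.132), and that of *Il4ra* was lost without any 1 of the 6 libraries (limma adjusted p = 0.0528 to 0.167), while the log2 fold changes stayed between -3.12 and -2.40 and between 0.95 and 1.16.

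The second comparison set *Med23*-deficient against WT cells of stage 2. The *Med23*-deficient libraries carry sample numbers in a separate run from those of all WT libraries. Genotype cannot be told apart from any batch that follows this split, here or in the third comparison. All 5 genes had a higher mean in the *Med23*-deficient cells. In limma 0 of the 5 passed either threshold, as in the Ballgown-style model. An unadjusted p of at most 0.05 was found for 3 of the 5 (*Il4*, *Gata3* and *Il4ra*), against 9.58% of all genes tested. The background was 0.213% of 20674 genes by adjusted p and 2.11% by fold and p. *Gata3* came closest, with a log2 fold change of 0.82 ± 0.12 (SE, 95% confidence interval 0.53 to 1.10, limma adjusted p = 0.0786), a 1.78-fold higher mean. It passed with the test limited to genes of a mean FPKM of at least 1 (limma adjusted p = 0.0396) and with the spread estimated from all 9 libraries (limma adjusted p = 0.0172).

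*Il4ra* showed a log2 fold change of 0.71 between *Med23*-deficient and WT stage 2 (standard error 0.19, limma adjusted p = 0.285) and *Il4* one of 0.48 ± 0.18 (SE, limma adjusted p = 0.477). Intervals of the difference ran from 0.25 to 1.18 for *Il4ra* and from 0.04 to 0.92 for *Il4*. *Stat6* showed a log2 fold change of 0.23 (interval -0.06 to 0.52, limma adjusted p = 0.618). *Il13* had one of 0.23 with a wide interval, -0.67 to 1.13 (limma adjusted p = 0.843), and its sign turned to -0.14 without WT stage 2 replicate 1. *Il4*, *Gata3* and *Il4ra* had no overlap between the genotypes, all higher in the *Med23*-deficient libraries. Over all genes tested, 14% had no overlap and 5.63% had none with the *Med23*-deficient group higher.

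The third comparison set *Med23*-deficient stage 2 against WT stage 3, groups that differ in both genotype and stage, so those cannot be told apart. It shares its libraries with the comparisons above. *Il13* was higher by 2.99 on the log2(FPKM + 1) scale (SE 0.21, limma adjusted p = 0.00517), *Il4* by 2.17 ± 0.24 (SE, limma adjusted p = 0.0182) and *Gata3* by 1.02 ± 0.11 (SE, limma adjusted p = 0.0175). The *Med23*-deficient means of *Il4* and *Gata3* were 4.95-fold and 2.07-fold those of WT stage 3. The 3 genes passed both thresholds and did not overlap, against a background of 1.33% by adjusted p, 2.86% by fold and p and 14.2% without overlap. *Il4ra* (log2 fold change -0.31, interval -0.67 to 0.05, limma adjusted p = 0.572) and *Stat6* (-0.17, interval -0.45 to 0.10, limma adjusted p = 0.725) overlapped and passed neither.

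Of these 3 calls, that of *Il13* held whichever library was left out (limma adjusted p = 0.0271 to 0.0376). *Il4* lost its call without any of the *Med23*-deficient replicates (limma adjusted p = 0.0612 to 0.0772) or without WT stage 3 replicate 3 (limma adjusted p = 0.0804). *Gata3* lost it without any single library other than *Med23*-deficient replicate 3 (limma adjusted p = 0.0551 to 0.0811). By fold and p, *Gata3* also missed a fold of 2 on the TPM scale (0.99), without *Med23*-deficient replicate 1 (0.94) and without WT stage 3 replicate 2 (0.97). The log2 fold changes ranged from 1.92 to 2.38 for *Il4* and from 0.94 to 1.11 for *Gata3*.

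**Figure D2:**
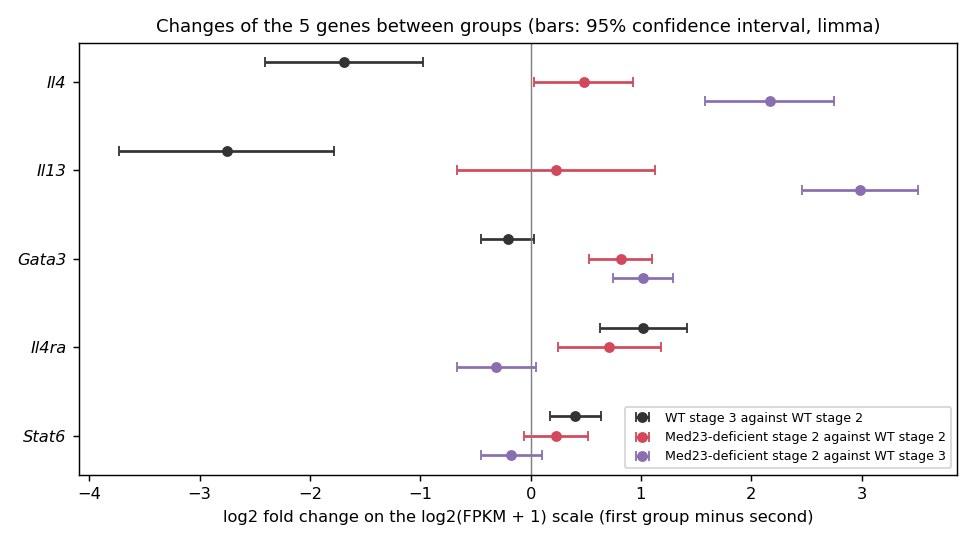
Log2 fold changes on the log2(FPKM + 1) scale (x axis, first group minus second) of the 5 genes (y axis) in the 3 comparisons, with points for the limma estimate and bars for its 95% confidence interval. *Il4* and *Il13* lie below 0 from WT stage 2 to WT stage 3 and above 0 in *Med23*-deficient stage 2 against WT stage 3. The *Gata3* and *Il4* intervals leave 0 in both comparisons with *Med23*-deficient cells. That of *Il4ra* leaves 0 in *Med23*-deficient against WT stage 2.

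Across the 9 libraries, log2(FPKM + 1) of *Il4* and *Il13* had a Pearson r of 0.94, and that of *Il4ra* and *Stat6* one of 0.88. *Gata3* had an r of 0.72 with *Il4*, 0.69 with *Il13* and 0.01 with *Il4ra*. The points share 3 groups of 3 libraries, so these values describe the order of the groups. Among 9657 named genes with a mean of at least 1 FPKM, the closest to *Il4* were *Nrgn* (r = 0.98), *Acadvl* (0.97) and *Pecam1* (0.96), and those closest to *Il13* were *Nxpe3*, *Tle3* and *Fcrl1* (0.98 each). *Gata3* was closest to *Fam84a* and *Homer2* (0.99 each) and *Khdrbs3* (0.98), which averaged 3.29, 3.19 and 7.12 FPKM in *Med23*-deficient cells and at most 0.55 FPKM in a WT group. *Il4ra* was closest to *Il10ra* (0.99), the gene of the interleukin 10 receptor, *Gbp8* and *Ppp1r9b* (0.98 each), and *Stat6* to *Itpr3*, *Mctp2* and *Nedd4* (0.96 each).

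The partner chain and kinases of the receptor passed no threshold in any comparison. *Il2rg*, the common gamma chain that pairs with the IL-4 receptor alpha chain, averaged 132 ± 17.4, 127 ± 16.9 and 160 ± 18.9 FPKM (SD, n = 3 each) in WT stage 2, then WT stage 3, then *Med23*-deficient stage 2, above *Il4ra* itself on this length-scaled unit. *Jak1*, the kinase bound to the alpha chain, averaged 91.5 ± 6.07, 112 ± 7.06 and 98.1 ± 6.20 FPKM, and *Jak3*, bound to the gamma chain, 15.9 ± 2.06, 15.8 ± 0.326 and 18.7 ± 1.30 FPKM (SD, n = 3 each). *Jak2* and *Tyk2* encode kinases of the type II receptor for IL-13. *Jak2* averaged 33.0 ± 2.15, 32.0 ± 3.76 and 41.4 ± 3.28 FPKM and *Tyk2* 9.41 ± 1.53, 11.5 ± 0.546 and 9.11 ± 1.30 FPKM (SD, n = 3 each). Every *Med23*-deficient library had more *Jak2* than every WT library (limma adjusted p = 0.342 against WT stage 2 and 0.309 against WT stage 3). Of all genes tested, 14% and 14.2% had no overlap in these comparisons, in either direction. *Il13ra1*, the other chain of the type II receptor, was not analysed here.

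Of 16 genes of the IL-4 and IL-13 receptor pathway other than *Il4ra* and *Stat6*, 14 were analysed, and 3 passed a threshold as higher in WT stage 3 than in WT stage 2. Among all genes tested, 1.67% passed by adjusted p and 3.6% by fold and p. *Irs2*, an adaptor through which the IL-4 receptor reaches PI3 kinase, had 5.90, 5.61 and 5.05 FPKM in WT stage 2 against 13.07, 14.95 and 12.80 FPKM in WT stage 3. It rose by 1.16 on the log2 scale (SE 0.12, limma adjusted p = 0.019). In *Med23*-deficient stage 2 it stayed at 6.95, 7.25 and 6.54 FPKM, lower than in WT stage 3 by a log2 fold change of -0.88 ± 0.11 (SE, limma adjusted p = 0.0273). *Socs2*, an inhibitor of cytokine signalling, rose from at most 0.19 FPKM to 1.12 to 1.28 FPKM (log2 fold change 0.96, limma adjusted p = 0.0343), all low values. In *Med23*-deficient stage 2 it had 0.80, 0.26 and 1.79 FPKM, also above all WT stage 2 libraries (log2 fold change 0.71, limma adjusted p = 0.52). *Cish*, of the same inhibitor family and induced by STAT5 and STAT6, passed the fold and p thresholds in both WT stage 3 (log2 fold change 1.03, limma adjusted p = 0.262) and *Med23*-deficient stage 2 (1.27, limma adjusted p = 0.478) against WT stage 2. Between the genotypes, 2.11% of all genes tested passed by fold and p. Single libraries ran from 1.01 to 3.41 FPKM in WT stage 2. *Med23*-deficient libraries had 3.34, 5.16 and 11.49 FPKM, so the genotypes overlapped.

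The median log2 fold change of the 14 receptor pathway genes was 0.28 from WT stage 2 to WT stage 3 and 0.23 from WT to *Med23*-deficient stage 2, where the median of all genes tested was -0.01 in both. Of 9 genes other than *Il4ra* and *Gata3* known as targets of IL-4 and STAT6 in T cells, 8 were analysed. *Nfil3* (0.35, 0 and 2.70 FPKM in WT stage 2, against 3.03, 4.93 and 3.26 FPKM in WT stage 3) and *Cish* were the 2 that passed the fold and p thresholds between the WT stages, and *Cish* was the 1 that did between the genotypes. *Epas1* (HIF-2 alpha) passed them in *Med23*-deficient stage 2 against WT stage 3, at 12.3 ± 5.26 and 4.09 ± 1.19 FPKM (SD, n = 3 each). Of all genes tested, 3.6%, 2.11% and 2.86% passed by fold and p in the 3 comparisons. By limma adjusted p, 0 of the 8 passed in any comparison, and 5, 1 and 4 had an unadjusted p of at most 0.05, a level reached by 13.2%, 9.58% and 10.2% of all genes tested in the 3 comparisons.

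**Figure D3:**
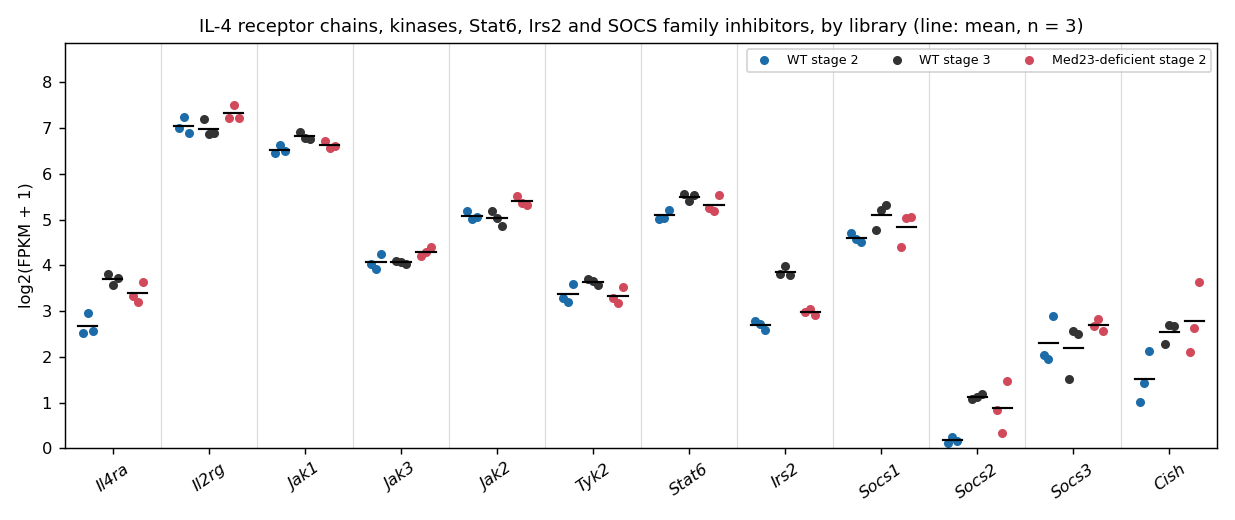
Log2(FPKM + 1) (y axis from 0) of *Il4ra*, its partner chain, JAK kinases, *Stat6*, *Irs2* and inhibitors of the SOCS family (x axis) in the 9 libraries, coloured by group, with points for libraries and a line for the group mean (n = 3). *Irs2* stands higher in all WT stage 3 libraries than in the other groups, and *Il4ra* is lowest in WT stage 2, while *Il2rg* and *Jak3* overlap between the WT stages.

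Of 8 NKT2 markers other than *Il4* and *Gata3*, 7 fell from WT stage 2 to WT stage 3 by adjusted p, where 1.67% of all genes passed. All 8 had a lower mean in WT stage 3 without overlap, against 17.8% of all genes, with a median log2 fold change of -2.19. *Zbtb16*, which encodes PLZF, the factor that gives NKT cells their innate-like character and is highest in NKT2 cells, fell from 101 ± 12.3 to 27.5 ± 5.41 FPKM (SD, n = 3 each; log2 fold change -1.85, limma adjusted p = 0.0122). *Il17rb*, the receptor for IL-25, fell from 45.7 ± 21.3 to 2.15 ± 0.564 FPKM (SD, n = 3 per group; limma adjusted p = 0.0186), and *Icos*, a costimulatory receptor, from 137 ± 5.04 to 33.6 ± 4.05 FPKM (SD, n = 3 per group; limma adjusted p = 0.00368).

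The other NKT2 markers that fell were *Il6ra*, *Lef1*, *Plac8* and *Ccr7*, the last from 9.68 ± 2.18 FPKM (SD, n = 3) to 0, 0.11 and 0.17 FPKM (limma adjusted p = 0.00843). *Izumo1r* showed a log2 fold change of -0.94 (limma adjusted p = 0.268). In *Med23*-deficient stage 2 against WT stage 2, 0 of the 8 passed a limma threshold and the median was -0.10. An unadjusted p of at most 0.05 was found for 3 of the 8, against 9.58% of all genes tested. *Zbtb16* averaged 78.1 ± 11.6 and *Il17rb* 76.4 ± 6.24 FPKM there (SD, n = 3 each). Against WT stage 3, 6 of the 8 were higher in *Med23*-deficient cells by adjusted p, where 1.33% of all genes passed in either direction. Their median was 1.99, against 0.003 for all genes tested. Like *Il4* and *Il13*, all 8 markers had their lowest mean in WT stage 3. Over all lists in the text, 17 of 83 genes passed the adjusted p between the WT stages, against 1.67% of all genes tested. With any 1 library left out, 2 (without WT stage 3 replicate 3), 3 (without WT stage 2 replicate 3) or 7 to 10 of the list genes passed.

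Among 10 receptors of type 2 cells, *Il17rb*, *Icos* and *Ccr4* fell from WT stage 2 to WT stage 3 by adjusted p. Of all genes tested, 1.67% passed by adjusted p and 3.6% by fold and p. *Il17rb* and *Icos* are also counted among the NKT2 markers above. *Ccr4*, a chemokine receptor of T helper 2 cells, averaged 30.0 ± 3.04 FPKM (SD, n = 3) in WT stage 2, 1.89 ± 1.18 FPKM in WT stage 3 and 30.6 ± 9.90 FPKM in *Med23*-deficient stage 2 (log2 fold change -3.50 between the WT stages, limma adjusted p = 0.0121). *Il2ra*, the alpha chain of the IL-2 receptor, had 0.95, 1.02 and 1.5 FPKM in WT stage 2, 0.70, 0.84 and 0.42 FPKM in WT stage 3, and 3.66, 3.40 and 6.57 FPKM in *Med23*-deficient stage 2. Between the genotypes it was the 1 receptor of the list past the fold and p thresholds (log2 fold change 1.33, limma adjusted p = 0.206). Of all genes tested, 2.11% passed those thresholds there. *Il1rl1*, the receptor for IL-33, and *Ptgdr2*, the prostaglandin D2 receptor of T helper 2 cells, stayed at or below 0.33 FPKM in the WT libraries.

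Of 18 other positive regulators of type 2 cytokine transcription, 2 were lower and 1 higher in WT stage 3 than in WT stage 2 by either threshold. Among all genes tested, 1.67% passed by adjusted p and 3.6% by fold and p. *Irf4*, a partner of NFAT and BATF, fell from 7.04, 6.29 and 10.35 FPKM in WT stage 2 to 0.08, 1.01 and 0.52 FPKM in WT stage 3 (log2 fold change -2.55, limma adjusted p = 0.0286), and stood at 6.68, 3.25 and 3.69 FPKM in *Med23*-deficient stage 2. *Nfil3*, a factor induced by IL-4, was the 1 that was higher, with a log2 fold change of 1.45 (limma adjusted p = 0.309), and passed by fold and p alone. *Tcf7*, which encodes TCF1, a factor that acts upstream of *Gata3* in T helper 2 cells, fell from 204 ± 36.3 to 42.7 ± 8.99 FPKM (SD, n = 3 per group; limma adjusted p = 0.0118) and averaged 154 ± 29.7 FPKM in *Med23*-deficient cells. Between the genotypes at stage 2, 0 of the 18 passed a limma threshold and the median log2 fold change was 0.02. An unadjusted p of at most 0.05 was found for 3 of the 18, against 9.58% of all genes tested. *Gata3* had its highest mean in the *Med23*-deficient group, whereas *Irf4* and *Tcf7* had theirs in WT stage 2.

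Of 12 inhibitors of type 2 cytokine transcription, 11 were analysed, and 2 were higher and 1 lower in WT stage 3 than in WT stage 2 by either threshold. Among all genes tested, 1.67% passed by adjusted p and 3.6% by fold and p. *Runx3*, which silences *Il4* in T helper 1 cells, rose from 42.1 ± 6.94 FPKM in WT stage 2 to 77.0 ± 1.83 FPKM in WT stage 3 (SD, n = 3 each; log2 fold change 0.87, limma adjusted p = 0.0399). *Tbx21*, encoding T-bet, the factor that opposes GATA3, was at 29.4 ± 8.43 and 73.2 ± 15.3 FPKM (SD, n = 3 each) and passed the fold and p thresholds (limma adjusted p = 0.0742), as did *Sox4* in the other direction (log2 fold change -1.68, limma adjusted p = 0.116). Between the genotypes, *Bcl6* had 1.17, 0.42 and 1.11 FPKM in WT stage 2 against 3.63, 3.21 and 2.82 FPKM in *Med23*-deficient stage 2 (log2 fold change 1.17, limma adjusted p = 0.219). *Bcl6* encodes a repressor that can restrain GATA3. *Sox4* and *Ezh2* had log2 fold changes of -1.12 and -1.04 there (limma adjusted p = 0.46 and 0.173), and *Bcl6*, *Sox4* and *Ezh2* passed the fold and p thresholds alone. Those were 1 higher and 2 lower of 10 tested, against 2.11% of all genes tested by fold and p.

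**Figure D4:**
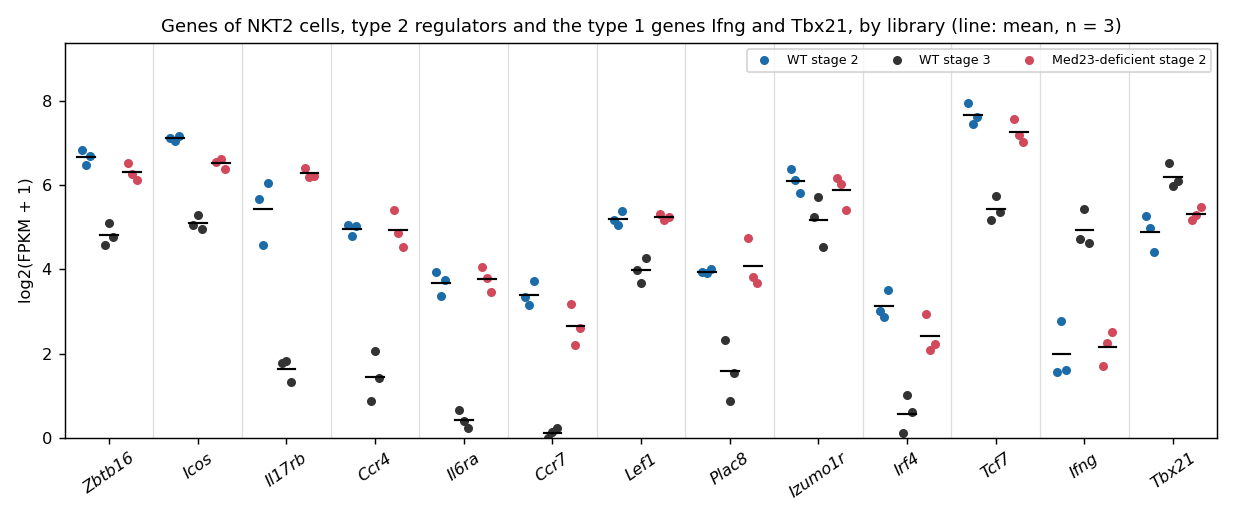
Log2(FPKM + 1) (y axis from 0) of NKT2 markers, *Ccr4*, *Irf4*, *Tcf7* and the type 1 genes *Ifng* and *Tbx21* (x axis) in the 9 libraries, coloured by group, with points for libraries and a line for the group mean (n = 3). For *Il17rb*, *Ccr4*, *Il6ra* and *Ccr7* all WT stage 3 libraries lie below both stage 2 groups, and for *Ifng* and *Tbx21* they lie above them.

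Of 8 genes of the type 1 response (*Ifng*, *Tbx21*, *Stat4* and subunits of the IL-12, IL-18 and IL-2 receptors), 4 rose from WT stage 2 to WT stage 3 by adjusted p and 6 passed the fold and p thresholds as higher. Over all genes tested, 1.67% passed by adjusted p and 3.6% by fold and p, in either direction. *Il18r1* (log2 fold change -0.72, limma adjusted p = 0.397) and *Il12rb1* (-0.60, limma adjusted p = 0.412) had a lower mean in WT stage 3 and passed neither. *Ifng* rose from 3.31 ± 2.23 to 30.4 ± 10.4 FPKM (SD, n = 3 each; log2 fold change 2.93, limma adjusted p = 0.0343) and averaged 3.59 ± 1.25 FPKM in *Med23*-deficient cells. *Il18r1* alone passed the fold and p thresholds between the genotypes, with 76.0 ± 20.5 FPKM in WT and 22.1 ± 8.76 FPKM in *Med23*-deficient stage 2 (SD, n = 3 each; log2 fold change -1.76, limma adjusted p = 0.135). Of all genes tested, 2.11% passed those thresholds there. Taking *Il4* against *Ifng*, the WT stage 2 mean of *Il4* was the larger, and in WT stage 3 that of *Ifng* was.

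Between the WT stages, genes around the cytokine locus had changes nearer 0 than *Il4* and *Il13* on the log2(FPKM + 1) scale, which understates those of low genes. On plain FPKM this did not hold for *Sept8*, which averaged 5.72 FPKM in WT stage 2 and 1.53 FPKM in WT stage 3. That fold of means is no smaller than the 3.57 of *Il4*. *Kif3a*, which ends 1014 bases from *Il4*, had 2.99, 6.06 and 3.62 FPKM in WT stage 2, against 2.12, 1.82 and 1.98 FPKM in WT stage 3, and 3.79, 6.48 and 3.32 FPKM in *Med23*-deficient stage 2. Its stages did not overlap (log2 fold change -0.77 ± 0.27 SE, limma adjusted p = 0.295). *Rad50*, a DNA repair gene on the other side of *Il13* that holds the locus control region of the cytokines in its introns, averaged 19.1 ± 2.96, 17.8 ± 1.96 and 16.8 ± 2.59 FPKM (SD, n = 3 each), with a log2 fold change of -0.09 between the WT stages (limma adjusted p = 0.804).

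Of 17 locus genes other than *Il4* and *Il13*, 12 were analysed, and 1 passed a threshold between the WT stages, *Sept8*, at 3.10, 4.61 and 9.46 against 1.44, 1.34 and 1.82 FPKM (log2 fold change -1.30, limma adjusted p = 0.199). By fold and p, 3.6% of all genes tested passed between the WT stages. Between the genotypes 0 of 11 tested passed a limma threshold and 2 had an unadjusted p of at most 0.05, against 9.58% of all genes tested. *Il5*, the other type 2 cytokine gene of the locus, was not analysed here. Of 11 further cytokines of type 2 cells, 4 were analysed. *Lif*, which encodes leukaemia inhibitory factor, had values of 0, 0 and 0.22 FPKM in WT stage 2 and stayed at 0 throughout WT stage 3, with 0.89, 2.62 and 3.28 FPKM in *Med23*-deficient stage 2 (log2 fold change 1.53 between the genotypes, limma adjusted p = 0.206). It passed the fold and p thresholds there, and *Il21*, *Csf2* and *Areg* passed none in any comparison. Between the genotypes, 2.11% of all genes tested passed by fold and p.

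**Figure D5:**
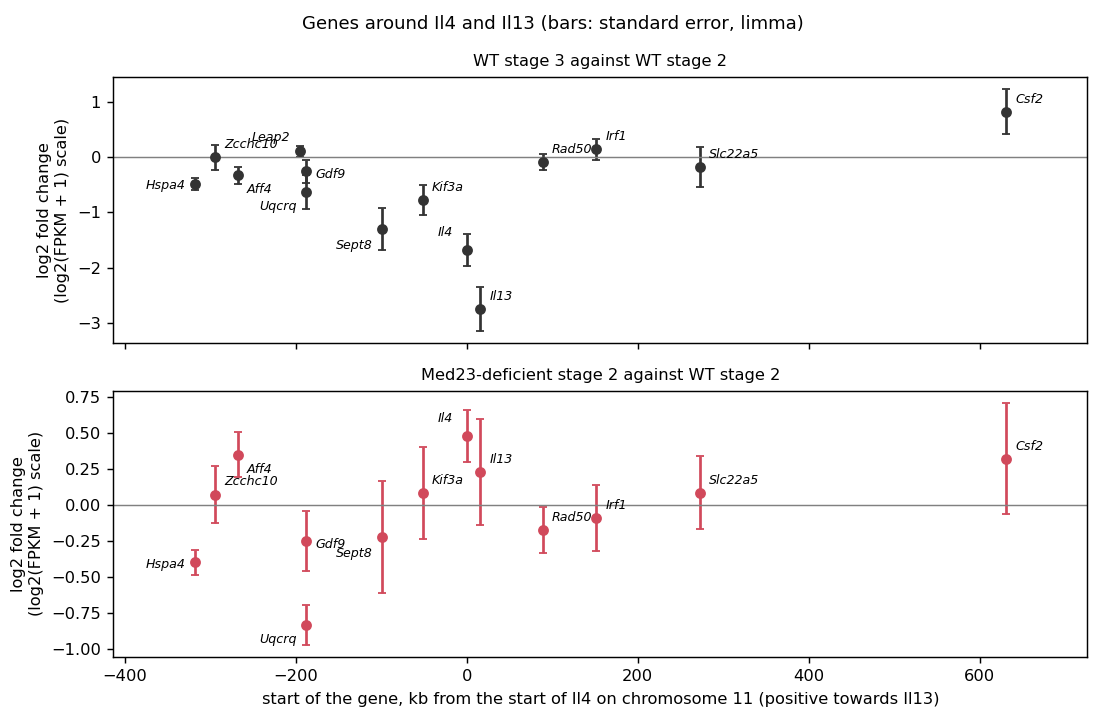
Log2 fold changes on the log2(FPKM + 1) scale (y axis) of the analysed genes around *Il4* and *Il13* against the distance of their start from that of *Il4* (x axis, kb, positive towards *Il13*), for WT stage 3 (upper panel) and *Med23*-deficient stage 2 (lower panel) against WT stage 2, with bars for the standard error. *Il4* and *Il13* have the lowest values of the upper panel, with *Kif3a* (-0.77) and *Sept8* (-1.30) next to them on 1 side, and no gene passed the adjusted p in the lower panel.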

How the data were processed

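The authors made stranded total RNA libraries with a low-input kit, trimmed reads with Trimmomatic 0.36, aligned them to mm10 with HISAT2, kept reads at no more than 2 loci and quantified GENCODE vM12 genes with StringTie. They deposited FPKM for 21883 genes, rounded, with replicates apart. No read counts were used, and low FPKM showed no steps of whole reads, so the depth behind a value is unknown and intervals for counting error are left out. Per the labels, groups follow genotype and stage, with 3 libraries each.

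Here log2(FPKM + 1) was tested with limma 3.58.1 in R 4.3.3 (mean-variance trend, 2-sided) in the 6 libraries of each comparison, over genes above 0 in at least 1, with p adjusted by Benjamini-Hochberg over all of them. The fold changes understate those of low genes. An exact permutation test of 3 against 3 cannot go below 0.10. Calls used an adjusted p of 0.05 or the thresholds of the study, a fold of 2 with an unadjusted p of 0.05. The genes, lists and tests were chosen with earlier results of these data known. Genes named are the 5, list genes past either threshold, partner chains and kinases of *Il4ra*, neighbours of the locus, and the 3 genes with the highest Pearson r to each. *Il1rl1*, *Ptgdr2*, *Izumo1r*, *Il21*, *Csf2* and *Areg* were named outside this rule, after their values were seen, as were the iNKT markers, *Hdc*, *Gm13256* and *Nab2*. Counts of a list leave out the 5 genes, and 1 gene of the type 1 list is not reported here. Gene positions are those the authors deposited with the FPKM values, and promoter sequences those of RefSeq (5 of 5 matched). Scripts were tested on simulated data. Alternatives were pseudocounts of 0.1 and 0.01, a mean FPKM of at least 1, TPM, upper quartile and quantile scaling, no trend, a Ballgown-style linear model, all 9 libraries, a replicate block and each library left out. TPM without *Gm23935*, a model holding 62.2% to 71.9% of summed FPKM, was added after seeing the data. Figures used Python 3.11.15 and matplotlib 3.10.9.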

Additional observations from a re-analysis of the deposited data

How the results depend on the processing

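Over 17 alternatives for each of 15 log2 fold changes of the 5 genes (255 values), 215 kept their direction and side of the adjusted p of 0.05, 33 lost the call, 6 gained it and 1 changed sign, and the cause was not tested. The value that changed sign was *Il13* between the genotypes, -0.14 without WT stage 2 replicate 1. From WT stage 2 to WT stage 3, *Il13* lost its call on the TPM scale (-2.81), in the Ballgown-style model (-2.01) and with the block (-2.75), and *Il4ra* on the TPM scale (0.93), without *Gm23935* (0.98), in the Ballgown-style model (1.12) and with the block (1.02). *Il4* gained one with pseudocounts of 0.1 (-1.85) and 0.01 (-1.87), a mean FPKM of at least 1 or all 9 libraries (-1.69 in both). *Gata3* gained one between the genotypes with the last 2 settings (0.82 in both). Against WT stage 3, the Ballgown-style model ended the calls of *Il4* (2.17) and *Gata3* (1.01), and TPM without *Gm23935* that of *Gata3* (1.03).

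With libraries left out in turn, log2 fold changes between the WT stages ranged from -1.90 to -1.44 for *Il4*, -3.12 to -2.40 for *Il13*, -0.26 to -0.14 for *Gata3*, 0.95 to 1.16 for *Il4ra* and 0.37 to 0.47 for *Stat6*. Between the genotypes they ranged from 0.32 to 0.67 for *Il4*, -0.14 to 0.59 for *Il13*, 0.73 to 0.91 for *Gata3*, 0.59 to 0.85 for *Il4ra* and 0.13 to 0.30 for *Stat6*. Against WT stage 3 they ranged from 1.92 to 2.38 for *Il4*, 2.94 to 3.08 for *Il13* and 0.94 to 1.11 for *Gata3*.

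Replicate numbers are shared by the groups, but deviations of same-numbered libraries had correlations of only 0.00 to 0.27, so the numbers were not taken as pairs. In WT stage 3 against stage 2 every library correlated best with its own number, and the replicate 3 libraries did so in all 3 comparisons (0.15, 0.14 and 0.27). These are hints from the data only. With the replicate block, log2 fold changes stay as they are, none of the 5 genes passed the adjusted p in any comparison, *Il4* (2.17), *Il13* (2.99) and *Gata3* (1.02) lost their calls against WT stage 3, and the counts of all genes fell to 19, 0 and 42.

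Genes called by adjusted p numbered 346 between the WT stages (224 on the TPM scale, 5 in the Ballgown-style model, 626 with all 9 libraries, 22 to 137 with 1 library left out), 44 between the genotypes (77 with a pseudocount of 0.01, 143 at a mean of at least 1, 1 in the Ballgown-style model, 176 with all 9 libraries, 27 for TPM without *Gm23935*, 1 to 8 with 1 library left out) and 278 against WT stage 3 (18 in the Ballgown-style model, 72 to 174 with 1 library left out). Calls by fold and p numbered 745, 437 and 597, against 1423, 971 and 1221 with a pseudocount of 0.1 and 1452, 974 and 1211 with 0.01.

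Of the 5 genes, 2, 0 and 3 were called by adjusted p. Between the WT stages this became 0 on the TPM scale, in the Ballgown-style model and with the block, 1 for TPM without *Gm23935* and 0 to 1 with a library left out. Between the genotypes it became 1 at a mean of at least 1 and with all 9 libraries, and against WT stage 3 it became 1 in the Ballgown-style model, 0 with the block and 1 to 2 with a library left out. List genes called by adjusted p numbered 17 between the WT stages and 13 against WT stage 3, 0 of either in the Ballgown-style model, 3 of either with the block, and 2 to 10 and 4 to 10 with a library left out. Between the genotypes they numbered 0, and 1 at a mean of at least 1 or with all 9 libraries, with 11 by fold and p at a pseudocount of 0.1 in place of 7. Over genes with a mean of at least 1, the median log2 change between the genotypes was -0.05, and -0.16 on the TPM scale, where *Gata3* stood at 0.82 and 0.69.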
